A study of Mus musculus with 22 samples.

Results

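Histone H3 lysine 4 trimethylation (H3K4me3) was examined at 10 interferon-induced effector genes, Ifit2, Ifit3, Oasl1, Oasl2, Bst2, Mx2, Ddx60, Xaf1, Ifi204 and Mndal. The genes were picked by name with earlier results of these libraries known, and every listed region annotated to one of them was taken, wherever it lay in the gene. They had 13 regions out of 26201 listed in 4 comparisons, and each of the 10 genes had at least 1, among 7858 genes named in the lists. The mark was measured by ChIP-seq in cultured synovial fibroblasts, the matrix-forming cells of the joint lining, from mice of a mixed CBA x C57BL/6J background. Tg197 cells, from arthritic mice with a human TNF transgene, were compared with age-matched wild-type (WT) cells at 3, 8 and 11 weeks. TNF-treated WT cells were compared with untreated ones at 8 weeks. Each group had 3 libraries. The untreated WT libraries of 8 weeks were the control in both comparisons at that age, so these comparisons are not independent of each other. The TNF dose and duration are not given in the sources used here, nor is whether replicate libraries stand for different animals or cultures, so each test covers only the variation among these libraries.

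Type I interferons act through a surface receptor and the kinases Jak1 and Tyk2, which act through transcription factors that include Stat2 and Irf9. These factors bind the interferon-stimulated response element (ISRE) in the promoters of many genes, a large share of whose products block steps of viral growth. TNF is known to induce part of the same programme in fibroblasts and macrophages, through NF-kB, Irf1 and low amounts of interferon beta. H3K4me3 marks the nucleosomes around the start sites of active genes and broadens downstream of the start when transcription is strong.

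Promoter sequences from RefSeq, on the GRCm38.p6 build, were at hand for 8 of the 10 genes, in 10 windows of 280 bases from 250 bases before to 30 bases after a transcription start. Ifit2 and Mndal had 2 starts each, and Ifi204 and Mx2 had no entry. The ISRE core, searched as GAAA, any 2 bases and GAAA again, on both strands with overlapping matches counted, was found in 5 windows of 4 genes. Across all 32851 RefSeq windows of this length 3.28% held it. These 4 genes are shown because their windows hold a match, while the windows of the other 4 genes hold none. Capitals mark the matches, and in Ifit3 they lie on the opposite strand and read as the reverse complement. All sequences run 5′ to 3′ in the direction of the gene, on the minus strand for Bst2 and Mndal and on the plus strand for Ddx60 and Ifit3.
Bst2, chr8:71537443-71537722: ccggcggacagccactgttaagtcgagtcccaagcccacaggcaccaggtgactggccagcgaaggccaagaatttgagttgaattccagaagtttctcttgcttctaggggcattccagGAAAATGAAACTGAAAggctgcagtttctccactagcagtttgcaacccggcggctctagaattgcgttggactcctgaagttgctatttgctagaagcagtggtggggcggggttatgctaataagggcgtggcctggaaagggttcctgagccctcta
Ddx60, chr8:61927837-61928116: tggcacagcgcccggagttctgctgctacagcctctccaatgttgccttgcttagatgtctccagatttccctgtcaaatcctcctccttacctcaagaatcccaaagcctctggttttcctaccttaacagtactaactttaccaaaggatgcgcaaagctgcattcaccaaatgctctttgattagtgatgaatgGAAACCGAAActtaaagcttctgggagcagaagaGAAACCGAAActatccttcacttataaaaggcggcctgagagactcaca
Ifit3, chr19:34583279-34583558: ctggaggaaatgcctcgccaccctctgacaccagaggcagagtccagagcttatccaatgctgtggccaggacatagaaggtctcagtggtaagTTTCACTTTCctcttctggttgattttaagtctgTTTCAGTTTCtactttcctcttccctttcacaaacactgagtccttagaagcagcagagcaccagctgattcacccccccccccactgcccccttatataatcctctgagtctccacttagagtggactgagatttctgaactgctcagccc
Mndal, first start, chr1:173880158-173880437: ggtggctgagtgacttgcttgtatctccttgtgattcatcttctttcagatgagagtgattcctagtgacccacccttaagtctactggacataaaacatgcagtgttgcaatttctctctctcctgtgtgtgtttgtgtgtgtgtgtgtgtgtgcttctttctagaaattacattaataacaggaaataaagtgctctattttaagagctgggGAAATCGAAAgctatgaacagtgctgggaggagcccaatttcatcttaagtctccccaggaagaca

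The matches began 130 and 124 bases before the start in Bst2, where they share letters, 53 and 19 bases before it in Ddx60, 156 and 122 bases before it in Ifit3, and 36 bases before the first and 54 bases before the second start of Mndal. The shorter core GAAANNGAA, present in 8.06% of all windows, added no gene. The gamma-activated site TTCNNNGAA was found in Bst2 and at the first start of Ifit2, and in 7.83% of all windows. The NF-kB consensus was found in Bst2 and Oasl1, and in 4.22% of all windows. No match to the ISRE core was found in the windows of Ifit2, Oasl1, Oasl2 and Xaf1, which covers these windows only.

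The deposited lists, on the mm9 build, hold only regions for which the authors' test gave a best window with p no greater than 0.0001. A gene without a region in a list therefore has no value there, and its mark in that comparison is not known. Reads recovered from the normalized values summed over the listed regions to between 321448 and 2780941 per library, and the 13 regions held 40 to 505 reads per library. The libraries of each group differed beyond counting noise, with a chi-square per region of 1.27 to 33.16 between pairs, and were counted as separate. Values below are the authors' normalized read counts of the 3 libraries, lettered a, b and c in the order of the table cell, followed by group means ± SD with n = 3. A fold is the ratio of these means, and a log2 change with its standard error (SE) comes from limma on log2 of the count plus 0.5.

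H3K4me3 was higher at 9 of the 13 regions and lower at 4, and the 9 higher ones all lay within 3 kb of the start. In Tg197 cells of 3 weeks Xaf1 and Ddx60 were higher, and Ifit3 and Oasl1 were lower within the gene body. At 8 weeks Ddx60 and Mndal had higher and Ifit3 lower means, but none of the 3 passed limma's test, and the groups overlapped at Mndal and Ifit3. At 11 weeks Mx2, Ifit2, Bst2 and Oasl2 were higher and Oasl1 was lower, and TNF-treated WT cells had 1 listed region, at Ifi204, which was higher. Differences ranged from 1.38-fold to 1.85-fold where Tg197 or TNF-treated cells were higher, and from 1.49-fold to 1.75-fold where Tg197 cells were lower. Both Ifit3 differences vanished to log2 values of 0.06 and 0.04 when each library was scaled to its median over all listed regions, and the Oasl1 differences shrank to −0.17 at 3 weeks and −0.36 at 11 weeks and no longer passed. With listed regions near starts as the scale, Xaf1 and Ddx60 of 3 weeks and Ifi204 no longer passed. Over the whole lists, 6 of 13603 regions passed as lower at 3 weeks and 681 of 6593 at 11 weeks under the former scaling. Under the latter, 3 regions passed as higher at 3 weeks and 221 of 3082 after TNF. In bulk chromatin, fewer cells with the mark and less of it per cell cannot be told apart.

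**Figure D1:**
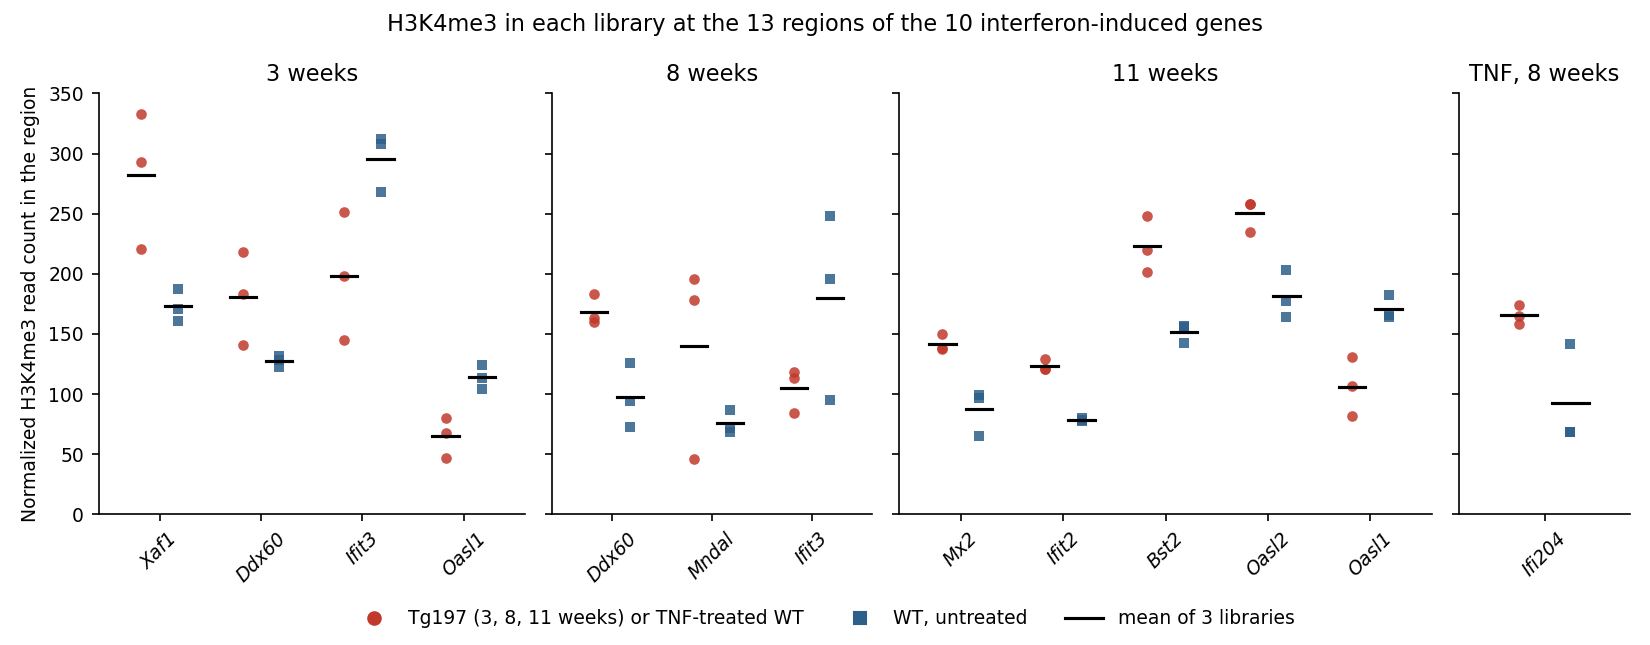
Normalized H3K4me3 read count (vertical axis) of each library at the 13 regions, by comparison, with Tg197 or TNF-treated cells as circles, WT cells as squares and group means as bars. The circles lie above the squares without overlap at 8 regions and below them without overlap at 3, and the groups overlap at Mndal and Ifit3 of 8 weeks, while both Ifit3 differences turn to 0.06 and 0.04 (log2) under scaling to all listed regions.

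The 2 Ifit genes, which encode tetratricopeptide repeat proteins that bind viral RNA or its translation machinery, had listed regions at different ages. Ifit2 was higher at 11 weeks, and Ifit3 was lower at 3 and 8 weeks with the authors' scaling but at 0.06 and 0.04 (log2) when all listed regions set the scale. Ifit2 had a region at chr19:34627001-34628100, centred 2367.5 bp downstream of the start. It measured 121, 121 and 129 in Tg197 libraries of 11 weeks, against 78.4, 77.6 and 79.8 in WT libraries, so the groups stood apart with little spread. The means were 123.6 ± 4.6 in Tg197 and 78.6 ± 1.1 in WT cells, which is 1.57-fold, with a log2 change of 0.65 ± 0.15 (SE). The authors' enrichment over input was 2.07 in Tg197 and 1.25 in WT cells.

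Ifit3, whose protein joins other Ifit proteins in complexes, had a region at chr19:34659601-34660900 at 8 weeks, centred 2232.5 bp into the gene. It measured 83.9, 113 and 118 in Tg197 libraries, against 196, 248 and 94.7 in WT libraries. WT library c fell inside the Tg197 range, so the groups overlapped. The means were 105.1 ± 18.5 in Tg197 and 179.6 ± 78.1 in WT cells, and the log2 change of −0.68 ± 0.37 became −1.08 without WT library c and −0.39 without WT library b, and −0.42 by voom on recovered reads. The next 1900 bp downstream, chr19:34660901-34662800, formed the listed region of 3 weeks, where the 2 regions meet end to end without overlap. There, 198, 145 and 251 were measured in Tg197 libraries and 268, 312 and 308 in WT libraries. Every Tg197 library lay below every WT library, with means of 198.0 ± 53.1 in Tg197 and 295.9 ± 24.4 in WT cells and a log2 change of −0.61 ± 0.21, or −0.40 without Tg197 library b. Enrichment over input was near 1 in every group of Ifit3, at 1.14 in Tg197 and 1.26 in WT cells of 3 weeks, and 1.00 in Tg197 and 1.04 in WT cells of 8 weeks.

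Oasl1 and Oasl2 are neighbours that encode oligoadenylate synthetase-like proteins, and mouse Oasl1 is known to hold back translation of the Irf7 message. Their listed regions of 11 weeks lay 27200 bp apart and differed in direction in the same libraries. The Oasl2 region, chr5:115346901-115348200, spanned the start, and measured 258, 258 and 234 in Tg197 libraries against 203, 177 and 164 in WT libraries. All Tg197 libraries were above all WT libraries, by 1.38-fold, the smallest of the 13 differences, with means of 250.2 ± 13.7 in Tg197 and 181.4 ± 19.9 in WT cells and a log2 change of 0.47 ± 0.11. The Oasl1 region, chr5:115375401-115376900, was centred 2902.5 bp downstream of its start and measured 81.4, 131 and 106 in Tg197 libraries against 166, 182 and 164 in WT libraries. Here all Tg197 libraries were below all WT libraries, with means of 106.3 ± 24.9 in Tg197 and 170.6 ± 10.1 in WT cells and a log2 change of −0.71 ± 0.17. A second Oasl1 region, 2800 bp further downstream at chr5:115379701-115380700, was listed at 3 weeks. It had 46.9, 67.8 and 80.1 in Tg197 libraries and 113, 104 and 124 in WT libraries, again without overlap, with a log2 change of −0.84 ± 0.27. Under scaling to all listed regions the Oasl1 changes were −0.36 at 11 weeks and −0.17 at 3 weeks, with limma adjusted p of 0.085 and 0.946.

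Bst2 (tetherin), a membrane protein that holds budding virions at the cell surface, had a region at chr8:74060001-74061200 at 11 weeks, centred 734.5 bp downstream of the start. It measured 248, 202 and 220 in Tg197 libraries, against 156, 157 and 143 in WT libraries. The groups stood apart, with means of 223.5 ± 23.5 in Tg197 and 151.8 ± 7.9 in WT cells, which is 1.47-fold, and a log2 change of 0.55 ± 0.12. Mx2, of the antiviral family of dynamin-like GTPases, is annotated by RefSeq as a transcribed pseudogene in this mouse genome. Its region, chr16:97757701-97758700, was centred 511.5 bp downstream of the start and measured 150, 138 and 137 in Tg197 libraries of 11 weeks against 97.1, 99.4 and 65.2 in WT libraries. The Tg197 libraries were all higher and lay closer together, at 141.8 ± 7.0 in Tg197 and 87.2 ± 19.2 in WT cells, with a log2 change of 0.72 ± 0.18.

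Ddx60, a helicase reported to assist cytosolic sensing of viral RNA, was listed at 2 ages, with regions that share 500 bp. At 3 weeks the region was chr8:64406401-64407400, centred 15.5 bp from the start, and measured 184, 219 and 141 in Tg197 libraries against 123, 132 and 128 in WT libraries. Tg197 library c lay just above the highest WT library. The means were 181.1 ± 38.7 in Tg197 and 127.6 ± 4.5 in WT cells, with a log2 change of 0.48 ± 0.19, or 0.15 (limma adjusted p = 0.587) with regions near starts as the scale. At 8 weeks the region began 500 bp further downstream, at chr8:64406901-64407900, and measured 160, 163 and 183 in Tg197 libraries against 126, 72.3 and 94.0 in WT libraries. No libraries overlapped, and the means of 168.6 ± 12.5 in Tg197 and 97.3 ± 26.9 in WT cells differed by 1.73-fold, with a log2 change of 0.82 ± 0.27. This change ranked 10 among the 623 regions with a positive change at 8 weeks, and its limma adjusted p was 0.07252.

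Xaf1, which binds and opposes the apoptosis inhibitor XIAP, had a region across its start at 3 weeks, chr11:72115001-72116600. It measured 221, 293 and 333 in Tg197 libraries, against 171, 161 and 187 in WT libraries, and the lowest Tg197 library was above the highest WT library. The means were 282.1 ± 56.6 in Tg197 and 173.1 ± 13.3 in WT cells, which is 1.63-fold. The log2 change of 0.69 ± 0.19 ranked 24 among the 1357 regions with a positive change at 3 weeks, and was 0.35 (limma adjusted p = 0.166) with regions near starts as the scale. Enrichment over input was 4.60 in Tg197 and 1.97 in WT cells.

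Ifi204 and Mndal belong to the interferon-inducible p200 family on chromosome 1, whose proteins bind DNA, and mouse Ifi204 is known as a cytosolic DNA sensor upstream of Sting. The Ifi204 region, chr1:175696101-175697100, spanned the start and measured 165, 174 and 158 in TNF-treated libraries against 68.6, 142 and 68.1 in untreated WT libraries. Untreated library b stood nearer to the TNF-treated libraries than to the other untreated ones, and the groups did not overlap. The means were 165.6 ± 8.3 in TNF-treated and 92.8 ± 42.3 in untreated cells, and the log2 change of 0.92 ± 0.34 ranked 1 among 811 regions with a positive change after TNF, while the log2 change of the authors' deposited table, 0.84, ranked 6. With regions near starts as the scale it was 0.82 (limma adjusted p = 0.0555). Enrichment over input was 6.02 in TNF-treated and 1.46 in untreated cells, a control level exceeded by all but 1.2% of the listed regions.

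Mndal was listed at 8 weeks in Tg197 cells, at chr1:175807801-175808800, centred 2016.5 bp downstream of the start. It measured 46.0, 196 and 178 in Tg197 libraries, against 71.6, 86.4 and 68.9 in WT libraries. Tg197 library a was the lowest of all 6, so the groups overlapped. The means were 139.9 ± 81.8 in Tg197 and 75.6 ± 9.4 in WT cells, the largest fold of the set at 1.85. Its log2 change of 0.63 ± 0.54 became 1.30 without Tg197 library a, 0.27 without Tg197 library b and 0.33 without Tg197 library c, and voom on recovered reads gave 0.16.

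Under limma with Benjamini-Hochberg adjustment over each whole list, 10 of the 13 regions passed an adjusted p of 0.05. The lists were made on these same libraries, so a pass is not independent evidence, and nothing is read from these counts. At 3 weeks 2 regions passed as higher and 2 as lower, where 4.68% of all 13603 listed regions passed as higher and 88.9% as lower. At 8 weeks none of the 3 passed, as for 0.0% of 2923 listed regions in either direction, by limma and by voom. Ddx60 alone had an unadjusted p under 0.05 there, as did 1876 listed regions. At 11 weeks 4 passed as higher and 1 as lower, where 29.6% of 6593 regions passed as higher and 67.7% as lower, and Ifi204 passed after TNF, where 16.5% of 3082 regions passed as higher. All 13 regions passed the adjusted p of the authors' deposited tables, as did 9.71% (higher) and 89.5% (lower) of the regions at 3 weeks, 20.2% and 77.2% at 8 weeks, 29.8% and 67.0% at 11 weeks, and 24.6% (higher) after TNF. The groups did not overlap at 11 of the 13 regions. These were 2 higher and 2 lower regions at 3 weeks, where 6.29% and 86.4% of all listed regions were likewise apart, and 1 higher region at 8 weeks, where 16.9% were apart as higher and 46.3% as lower. At 11 weeks they were 4 higher and 1 lower region, beside 28.8% and 67.1%, and for TNF 1 higher region, beside 22.4% as higher and 51.8% as lower. The calls at 11 weeks held without any 1 library. At 3 weeks no region of the list passed without WT library c, Ifit3 also fell short without WT library b, Oasl1 without WT library a, and Ddx60 without any library except Tg197 library c. At 8 weeks Ifit3 (lower) and Ddx60 (higher) passed without WT library c, where 2235 of 2923 listed regions passed as lower and 328 as higher. Ifi204 passed in no fit that left a library out, with limma adjusted p of 0.0549 to 0.147 and log2 changes of 0.74 to 1.27. No region of the TNF list passed without TNF-treated library b or c or untreated library a or b. Without TNF-treated library a 343 of its 3082 regions passed as higher, and without untreated library c 661 did.

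In position, the 13 regions were all centred downstream of the start. The 9 higher ones had centres between 15.5 and 2367.5 bp, 7 of them within 1 kb, and those of Xaf1, Ddx60 (3 weeks), Oasl2 and Ifi204 held the start itself. The 4 lower ones had centres between 2232.5 and 6952.5 bp, and none held the start. The full lists were ordered alike. Among all positive regions 90.3%, 88.5% and 43.4% lay within 3 kb of a start at 3, 8 and 11 weeks and 94.1% after TNF, against 14.5%, 26.8%, 19.3% and 46.9% of all negative regions. These shares include regions without a gene. Among regions with a gene they were 95.3%, 92.6%, 54.8% and 96.8% of positive and 22.0%, 40.9%, 28.6% and 58.6% of negative ones.

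**Figure D2:**
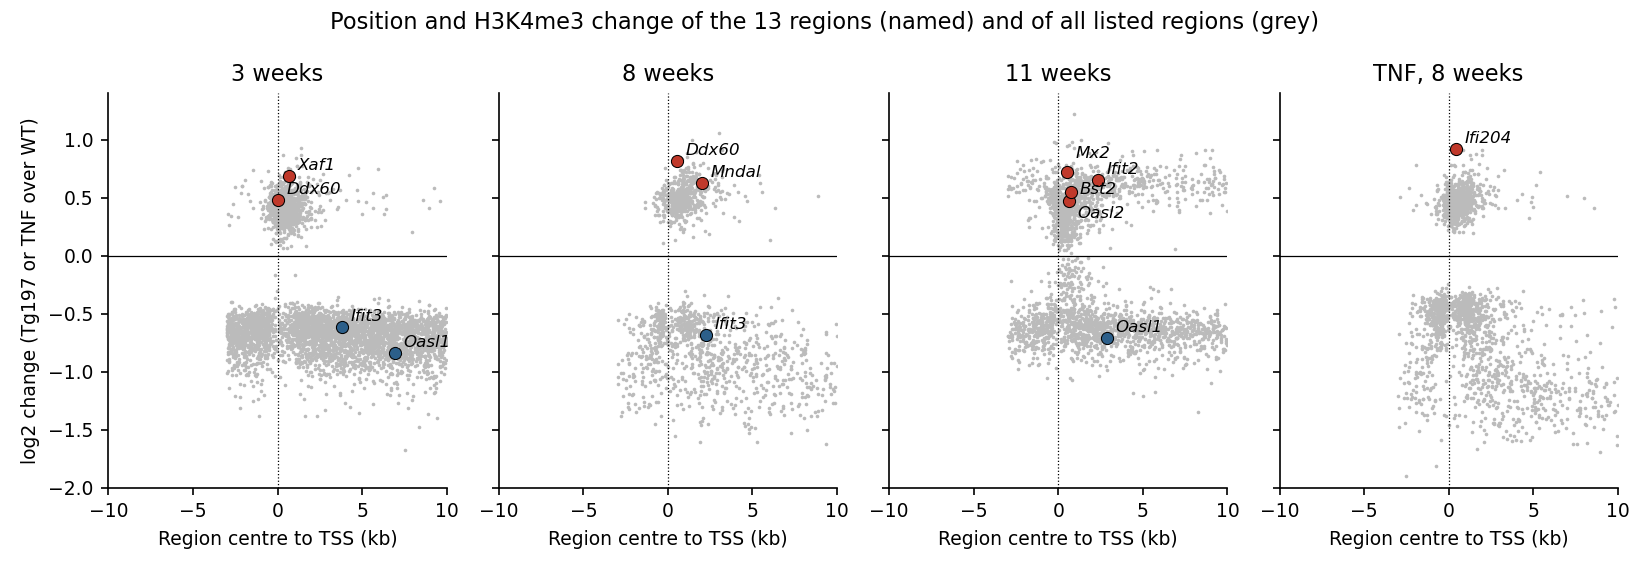
Log2 change (vertical axis) against the distance of the region centre from the transcription start site in kb (horizontal axis), for the 13 regions (named, red where higher and blue where lower) and all listed regions up to 10 kb (grey). Named regions above the zero line sit within 3 kb downstream of the start and those below it sit at 2232.5 to 6952.5 bp, and the 2 Ifit3 points move to 0.06 and 0.04 under scaling to all listed regions.

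Enrichment in WT cells differed among the 13 regions. The authors' enrichment over input in WT or untreated cells was 1.26 (3 weeks) and 1.04 (8 weeks) at Ifit3, 1.25 at Ifit2, 0.84 at Mndal, 1.30 at Ddx60 of 8 weeks and 1.46 at Ifi204, where the medians of all listed regions were 2.58, 2.51, 2.59 and 2.98 at 3, 8 and 11 weeks and for TNF. It was 1.97 at Xaf1, 2.02 at Ddx60 of 3 weeks, 2.35 at Bst2, 2.40 at Oasl2 and 2.52 at Mx2, nearer those medians. At the Oasl1 regions it was 2.31 at 3 weeks and 3.67 at 11 weeks, the highest of the 13. Enrichment in Tg197 or TNF-treated cells divided by that in WT cells was 2.34 at Xaf1 and 2.18 at Ddx60 of 3 weeks, 2.31 at Mndal and 2.54 at Ddx60 of 8 weeks, and 4.12 at Ifi204. At 11 weeks this quotient was 1.45 to 1.70 at the higher regions. The medians over all positive regions were 2.04, 2.09 and 1.58 at 3, 8 and 11 weeks and 2.83 for TNF. For the lower regions the quotient was 0.90 at Ifit3 and 0.81 at Oasl1 of 3 weeks, 0.96 at Ifit3 of 8 weeks and 0.65 at Oasl1 of 11 weeks. The medians over all negative regions were 0.85, 0.76 and 0.67 at 3, 8 and 11 weeks.

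Directions were checked under other scalings, since most listed regions were lower in Tg197 or TNF-treated cells. The median log2 change of all listed regions was −0.70, −0.86 and −0.60 at 3, 8 and 11 weeks and −0.58 for TNF, and scaling each library to its median over all listed regions moved these medians to −0.04, −0.15, −0.26 and −0.07. Relative to that median the higher regions lay further up, between 0.81 at Oasl2 and 1.54 at Ddx60 of 8 weeks. Ifit3 then had 0.06 at 3 weeks and 0.04 at 8 weeks, and Oasl1 had −0.17 at 3 weeks and −0.36 at 11 weeks. Using as the scale only the listed regions near starts (up to 1 kb) moved the medians of all regions to −1.04, −0.99, −0.74 and −0.68 and turned no sign. Xaf1 then had 0.35 and Ddx60 0.15 at 3 weeks.

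**Figure D3:**
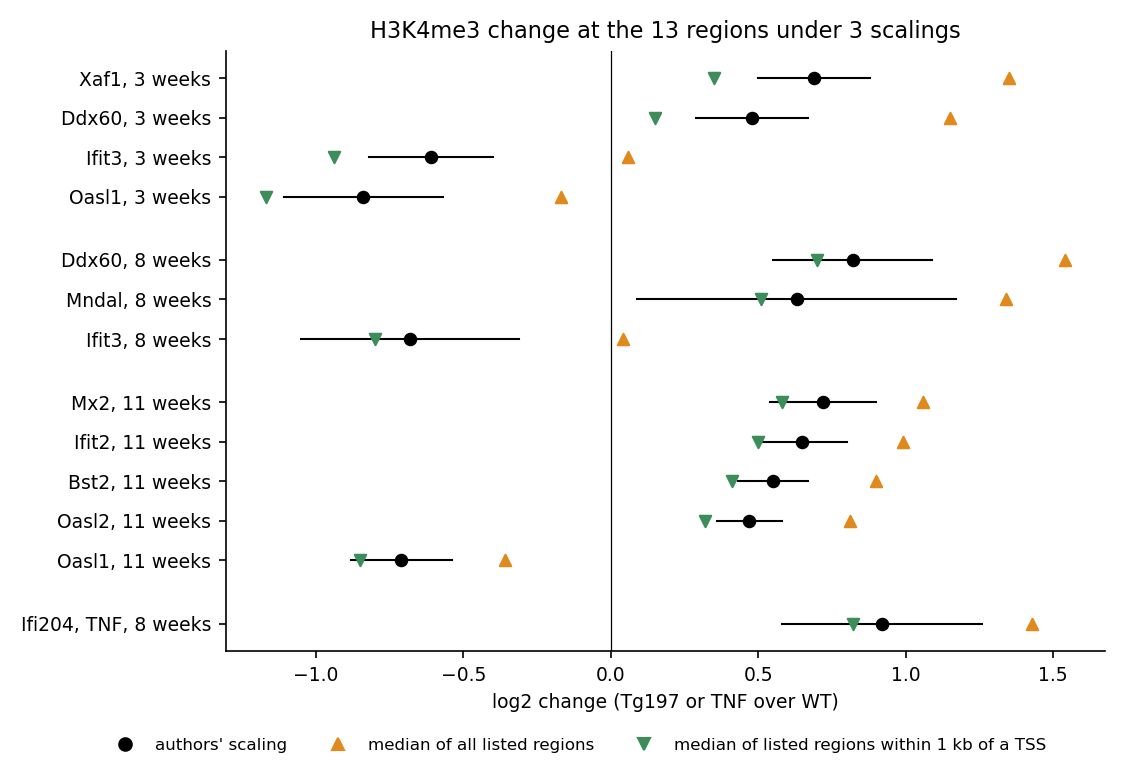
Log2 change (horizontal axis) at the 13 regions with the authors' scaling (black, bars ± SE) and with each library scaled to the median of all listed regions (orange) or of those up to 1 kb from a start (green). The 9 higher regions stay above zero under each scaling, Oasl1 stays below it, and Ifit3 crosses to 0.06 and 0.04 when all listed regions set the scale.

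The Ifit, Oasl and p200 genes lie in clusters of related genes, and the other listed regions of the Ifit and p200 clusters were looked up. Across the Ifit cluster, chr19:34625183-34687890, 5 regions were listed at 3 weeks, all lower in Tg197 cells with log2 changes of −0.82 to −0.61, though between −0.15 and 0.06, with 4 above zero, under scaling to all listed regions. Their WT enrichment over input was 1.04 to 1.78. They included Gm14446 (named Ifit1bl1 in RefSeq), with means of 139.9 ± 31.8 in Tg197 and 210.0 ± 5.5 in WT cells, and I830012O16Rik (Ifit3b), with means of 95.0 ± 25.0 in Tg197 and 165.6 ± 20.5 in WT cells. At 8 weeks both listed regions were lower, with Ifit3 at 0.04 and Gm14446 at −0.12 under that scaling, at 11 weeks the Ifit2 region was the single one, and none was listed after TNF. The p200 cluster, chr1:175677424-175912974, had 7 regions at 3 weeks, all lower with log2 changes of −0.85 to −0.57, though between −0.18 and 0.10, with 2 above zero, under scaling to all listed regions. Among them was a region near the start of Ifi202b, with means of 255.4 ± 61.8 in Tg197 and 390.2 ± 41.4 in WT cells, and one near the start of Ifi203, with means of 94.0 ± 33.3 in Tg197 and 147.0 ± 9.5 in WT cells. WT enrichment over input ranged from 0.67 at that Ifi203 region to 5.69 at that Ifi202b region. The Ifi203 region had 0.57 in Tg197 cells, so its signal lay below input in both groups. All 3 regions of Gm14446 and I830012O16Rik at 3 weeks and the 4 regions of Ifi203 and Ifi202b fell by limma with Benjamini-Hochberg adjustment, at adjusted p of 0.01425 to 0.01724, where 88.9% of all regions of that list fell, and none of them passed under scaling to all listed regions. The single p200 regions of 8 weeks (Mndal) and of TNF-treated cells (Ifi204) were the higher ones described above.

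Of 143 symbols of other interferon pathway genes, some of them older and newer names of the same gene, 48 had a listed region in at least 1 comparison. At 3 weeks 25 had one, and 4 rose and 18 fell by limma. Within 3 kb of a start 4 genes rose, which were Irf1, Irgm1, Parp12 and Parp14, and 8 fell. At 8 weeks 11 genes had a region and none passed, like all regions of that list. At 11 weeks 24 had a region, and 17 rose, 6 fell and Tmem173 (Sting1) did both, while after TNF 17 had one, and 6 rose, 5 fell and Znfx1 did both. The shares of all listed regions given above (4.68% and 88.9%, 29.6% and 67.7%, 16.5% and, for lower after TNF, 42.6%) stand beside these counts. They count regions at any distance, with or without a gene, so they differ in unit from the gene counts. Of listed regions with a gene, 595 of 9359 rose and 7995 fell at 3 weeks. The numbers were 1529 and 3006 of 4697 at 11 weeks, and 494 and 1024 of 2604 after TNF. No share was taken for regions within 3 kb of a start alone. With the median of all listed regions as the scale, 5 genes rose and 0 fell at 3 weeks, and 5 rose and 1 fell at 8 weeks. With it 18 genes rose and 1 fell at 11 weeks, and 9 rose and 1 fell after TNF. Under that scale 940 of all 13603 listed regions rose and 6 fell at 3 weeks, and 338 of 2923 rose and 76 fell at 8 weeks. Of 6593 regions 2078 rose and 681 fell at 11 weeks, and of 3082 regions 772 rose and 258 fell after TNF. With the regions near starts as the scale, 0 genes rose and 18 fell at 3 weeks, and 0 rose and 5 fell at 8 weeks. With it 12 genes rose and 6 fell at 11 weeks, and 4 rose and 8 fell after TNF. Of all listed regions 3 rose and 12238 fell under this scale at 3 weeks, and 12 rose and 1717 fell at 8 weeks. The numbers of regions were 1488 and 4519 at 11 weeks, and 221 and 1946 after TNF. The median log2 change of the pathway regions at any distance was −0.64, −0.82 and 0.53 at 3, 8 and 11 weeks and −0.58 for TNF. For all listed regions it was −0.70, −0.86, −0.60 and −0.58. These sets differ in position. At 11 weeks 20 of the 29 pathway regions lay within 3 kb of a start, against 54.8% of positive and 28.6% of negative listed regions with a gene.

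By role, none of 11 symbols of interferon ligands, 10 Oas genes or Mx1 had a listed region in any comparison. Of 7 receptor symbols, Ifnar2 and Ifngr2 rose at 11 weeks and Il28ra (Ifnlr1, the interferon lambda receptor chain) fell, and Ifngr1 rose after TNF, of which Il28ra was not called under scaling to all listed regions and Ifngr1 not under scaling to regions near starts. Of 16 symbols of sensors and adaptors, Ikbke, Mavs, Tbk1 and Zbp1 rose at 11 weeks, Zbp1 with an adjusted p of 0.0583 (limma) under scaling to regions near starts. Irf1, which activates interferon genes, rose at 3 and 11 weeks and after TNF, with log2 changes of 0.77, 0.71 and 0.55, and Jak2 rose at 11 weeks and after TNF, with 0.47 and 0.87. Under scaling to regions near starts the limma adjusted p of Irf1 was 0.0621 at 3 weeks and 0.0501 after TNF, and that of Jak2 at 11 weeks was 0.0538. Irf1 was also listed at 8 weeks, with 0.43, and did not pass (limma adjusted p = 0.0862, or 0.0474 under scaling to all listed regions). Irf2 rose at 11 weeks, with 0.32 (limma adjusted p = 0.0503 under scaling to regions near starts). Its region of 3 weeks did not pass (limma adjusted p = 0.167). In the same group of kinases and transcription factors Irf5, Irf8, Stat2, Stat3 and Tyk2 fell at 3 weeks, Irf5, Irf8, Jak1 and Tyk2 fell at 11 weeks, and Irf3, Stat2 and Stat3 fell after TNF, none of them under scaling to all listed regions. Of the negative regulators, Pias1 fell at 3 weeks, and Socs3 and Ptpn6 fell after TNF, of which Ptpn6 alone also fell under that scaling. A gene-body region of Pias1 rose at 11 weeks, with a log2 change of 0.72 (limma adjusted p = 0.00557), and passed under both other scalings. Its groups overlapped there, and the adjusted p of the authors' test was 0.0719.

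Among these other pathway genes, those with the 2 largest changes in each comparison had their regions in the gene body. At 3 weeks these were Mavs, the mitochondrial adaptor of RNA sensing, and the kinase Ikbke. Their gene-body regions measured 65.5 ± 24.6 and 65.1 ± 39.1 in Tg197 cells, against 128.5 ± 5.9 and 118.6 ± 3.0 in WT cells, with log2 changes of −1.05 ± 0.29 and −1.04 ± 0.38. At 11 weeks they were the nuclear body protein gene Sp100, with 72.6 ± 15.6 in Tg197 and 132.5 ± 21.3 in WT cells, and the kinase gene Tbk1, with 104.8 ± 15.1 in Tg197 and 60.6 ± 12.2 in WT cells. For TNF they were Znfx1, an RNA helicase gene, with 52.7 ± 29.0 in treated and 148.9 ± 52.3 in untreated cells, and Stat2, with 68.8 ± 30.3 in treated and 177.0 ± 53.6 in untreated cells. These 6 regions passed limma's adjusted p of 0.05, and only Sp100 and Tbk1 also did so under scaling to all listed regions. Enrichment over input at Sp100 was 0.42 in Tg197 and 0.72 in WT cells, so the signal there lay below input in both. At Tbk1 it was 1.94 in Tg197 and 1.06 in WT cells. At 8 weeks Jak1 and Stat2 had the largest changes, in the gene body, with −1.51 ± 0.51 and −1.17 ± 0.44, and neither passed with the authors' scaling. Jak1 passed under scaling to all listed regions (limma adjusted p = 0.0495), where 76 of 2923 regions passed as lower. Both passed under scaling to regions near starts (limma adjusted p = 0.0422), where 1717 passed as lower.

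**Figure D4:**
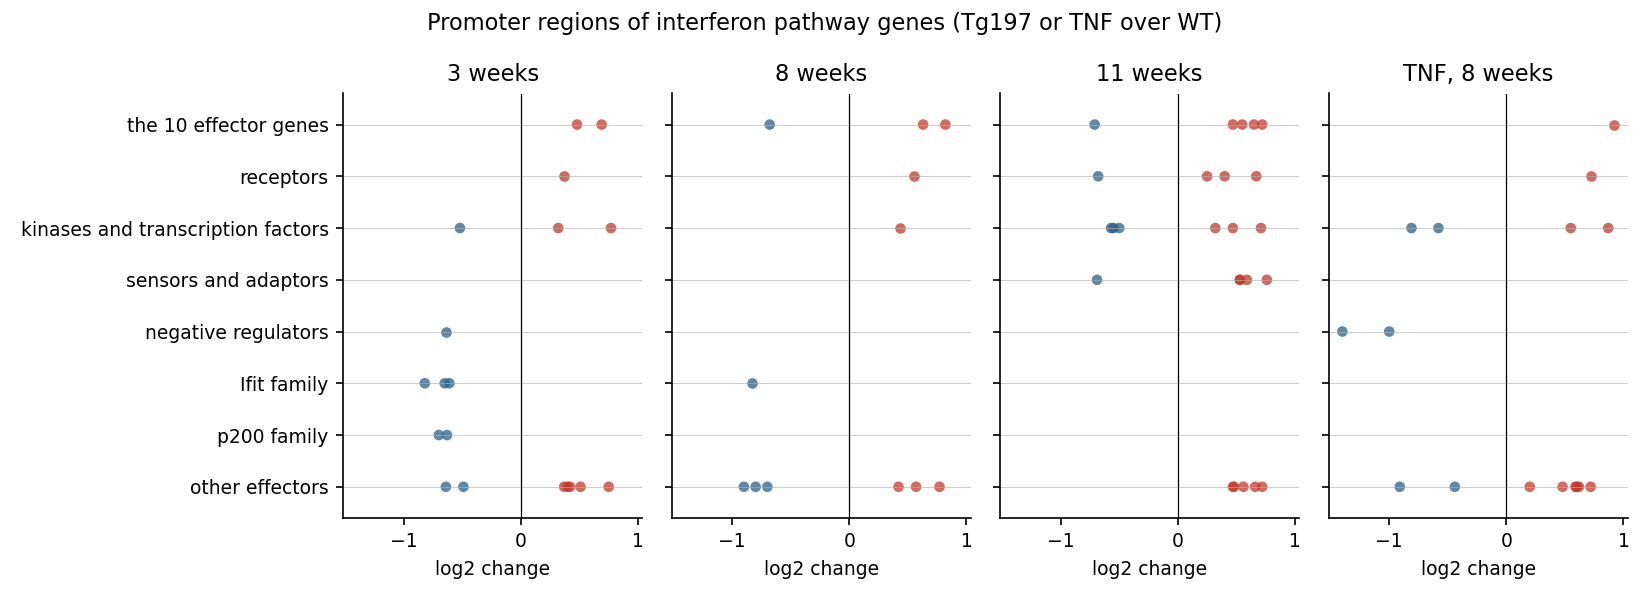
Log2 change (horizontal axis) of listed regions within 3 kb of a start for the 10 effector genes and for other interferon pathway genes by role, 1 point per region, red where higher in Tg197 or TNF-treated cells and blue where lower. Points of the 10 genes lie on both sides of zero at 8 and 11 weeks, with the Ifit3 point of 8 weeks at 0.04 under scaling to all listed regions, and the Ifit and p200 family rows hold points below zero only, which spread around zero under that scaling.

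Markers of other cells were looked up in the same lists. Of 13 leukocyte markers, Itgam had listed regions at 3 and 11 weeks, lower in Tg197 cells, with sums of 145.5 to 241.6 in Tg197 and 343.1 to 409.1 in WT libraries at 3 weeks, and 57.4 to 73.7 in Tg197 and 91.6 to 128.0 in WT libraries at 11 weeks. At 8 weeks Cd79a and Fcer1g summed to 120.2 to 198.8 in Tg197 and 180.8 to 407.9 in WT libraries, and after TNF no leukocyte marker was listed. Of 11 fibroblast markers, 8 had a listed region at 3 weeks, among them Pdgfra, Pdgfrb, Pdpn and Col1a1, and 3 had one in each other list. At 3 weeks 4 of their regions were higher and 12 lower, with sums of 2528.4 to 3269.1 in Tg197 and 3266.0 to 3310.4 in WT libraries. At 8 weeks all 3 were higher, with sums of 668.8 to 828.8 in Tg197 and 444.4 to 527.9 in WT libraries. At 11 weeks 2 were higher and 4 lower, with 1067.6 to 1144.7 in Tg197 and 1158.2 to 1306.9 in WT libraries, and after TNF 1 was higher and 4 lower, with 951.9 to 1056.4 in treated and 1010.0 to 1484.4 in untreated libraries. Of 6 endothelial markers, 3 had regions at 3 weeks, 1 higher and 8 lower, with sums of 713.1 to 954.6 in Tg197 and 1070.7 to 1328.3 in WT libraries. Their regions were 2 higher and 2 lower at 11 weeks and 1 lower after TNF, with none at 8 weeks. By the sign of the authors' log2 change, 12246 of all 13603 listed regions were lower at 3 weeks and 2298 of 2923 at 8 weeks. At 11 weeks 4526 of 6593 were lower, and after TNF 2271 of 3082. The sums hold the authors' scaling only. Markers without a listed region have no value, and the part of other cells in the differences was not tested.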

How the data were processed

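H3K4me3 ChIP-seq had been done on 21 libraries in 7 groups of 3, sequenced as 100 bp paired ends per the labels, and on 1 input library that is not in the tables. The build was mm9, and BWA was among the tools, per the submitters' processing notes, which give no roles. How regions were called is not stated there. Each deposited region, per the file headers, holds 3 normalized read counts per group in 1 cell, and the authors' group average of them is the signal. The authors' enrichment is a ratio over an input, their fold change is on the log2 scale as treatment over control, and the deposited tables also give a p-value and an adjusted p from their own test. Control was read as WT, since both 8-week tables had the same recovered reads for control in 162 of 162 values of 54 shared regions.

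Whole reads per library were recovered from the normalized counts, where 100.0% of values were whole multiples of 1 step within 0.02 on the normalized scale. Each table was fitted alone over all its regions with limma 3.58.1 in R 4.3.3, taking log2 after adding 0.5 to the normalized counts, with a variance trend, and adjusted by Benjamini-Hochberg at 0.05. The fit was tested on simulated data. The listed regions were selected by the authors from these very libraries, so the p-values do not stand as independent evidence. Tables were prepared in Python 3.11.15 with pandas 2.3.3. Alternatives were a pseudocount of 5, a mean count of at least 20 or (chosen after seeing the data) 100, scaling to the median of all listed regions or of those within 1 kb of a start, leaving out each library, the authors' adjusted p, and voom on recovered reads (chosen after seeing the data). The genes and the lists of pathway genes and markers were chosen with earlier results of these data known. Of other pathway genes, values are given for those of the Ifit, Oas, Mx and p200 families and for the 2 with the largest change per comparison. Irf1, Irf2 and Jak2 were added after their values were seen. Promoter windows came from RefSeq on GRCm38.p6 and were not placed on the mm9 regions.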

Additional observations from a re-analysis of the deposited data

How the results depend on the processing

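The 13 log2 changes kept their direction and their side of the threshold with a pseudocount of 5, with a mean count of at least 20 (which removed no region) and with voom on recovered reads, though voom gave 0.16 at Mndal and −0.42 at Ifit3 of 8 weeks. Under scaling to all listed regions Ifit3 turned to 0.06 at 3 weeks and 0.04 at 8 weeks. Such scaling shifts every region of a list by about the same amount, and which scale is right was not tested. That scaling left 0 lower regions past the threshold at 3 weeks (2 with the authors' scaling) and 0 at 11 weeks (1 before). It brought 2 higher regions past it at 8 weeks (0 before). Over all listed regions it left 6 lower at 3 weeks (12096 before) and 681 at 11 weeks (4462 before), and brought 338 higher at 8 weeks (0 before). Scaling to regions within 1 kb of a start left 0 higher regions at 3 weeks (2 before) and 0 after TNF (1 before). Over all listed regions it left 3 higher at 3 weeks (636 before) and 221 after TNF (509 before). A mean of at least 100 left 1 lower region at 3 weeks, since it removed the other. The authors' adjusted p gave 2 higher and 1 lower region at 8 weeks, where limma gave 0, beside 20.2% and 77.2% of all listed regions. Leaving out 1 library gave 0 to 2 higher and 0 to 2 lower regions at 3 weeks, and 0 to 1 of each at 8 weeks. It gave 4 higher and 1 lower at 11 weeks, and 0 after TNF. Over all listed regions such fits gave 0 to 1196 higher and 0 to 12201 lower at 3 weeks, and 0 to 328 and 0 to 2235 at 8 weeks. They gave 1781 to 1873 and 4323 to 4435 at 11 weeks, and 0 to 661 and 0 to 2109 after TNF. Of the 78 log2 changes at the 13 regions with 1 library left out, none turned its sign, 60 kept their side, 16 no longer passed and 2 newly passed. The planned edgeR test on recovered reads was not run, and voom took its place. No paired analysis was possible because the deposited values carry no replicate number. The 40 to 505 reads per region limit what can be seen at single regions, and regions without a listed difference were not analysed here.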

Other observations

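Parp14, an interferon-induced ADP-ribosyltransferase gene that was singled out after its values were seen, had a listed region near its start in 3 of the 4 comparisons. The 3-week region measured 360.9 ± 41.2 in Tg197 and 214.7 ± 27.7 in WT cells (SD, n = 3 each), with a log2 change of 0.75 ± 0.18. At 11 weeks it measured 355.8 ± 44.5 in Tg197 and 229.1 ± 59.9 in WT cells, with 0.66 ± 0.17. After TNF it measured 432.2 ± 1.6 in treated and 286.1 ± 32.6 in untreated cells, with 0.60 ± 0.12. Under scaling to regions within 1 kb of a start the log2 change was 0.42, 0.52 and 0.50, with limma adjusted p of 0.0514 at 3 weeks, 0.0102 at 11 weeks and 0.0347 for TNF.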
